A study of Mus musculus with 2 samples.

Results

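Interleukins and related cytokines, the receptor chains that bind them and the SOCS genes that restrain their signals were examined in cultured macrophages with and without calpain-6. The set holds 45 named genes: 19 ligands and antagonists, 22 receptor chains and 4 SOCS genes. They were found through the RefSeq accession of each probe, which gave 44 of them among the 20660 named genes of the array, and Il12b, the shared subunit of IL-12 and IL-23, had no probe matched this way. The Capn6-Ko group came from calpain-6-deficient male mice and the Capn6-Wt group from calpain-6 wild-type male mice. In both, femoral marrow cells were grown into macrophages with 10% serum, 50 ng/mL of the growth factor M-CSF and 10 ng/mL of the inflammatory cytokine TNF-α, so every culture had met TNF-α. The labels disagree on the day of culture (day 3 and day 4), and the series design text gives 4 mice whose cells were pooled, without the number per genotype. With 1 pooled array per genotype there was no replicate, so no test between genotypes could be run and each value describes these 2 RNA pools.

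Cytokines of this set act in short loops. IL-1 family ligands signal through MYD88 toward NF-κB, and their action is held in check by a receptor antagonist, decoy receptors and binding proteins. Most other members signal through paired receptor chains that carry JAK kinases, which switch on STAT transcription factors. STATs induce the SOCS genes, whose proteins bind the receptors and JAKs and shut the signal down, so SOCS mRNA is widely used as a readout of recent cytokine signalling in macrophages.

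The arrays were alike in quality. Of 59305 non-control spots, 52.8% on the Capn6-Ko array and 51.7% on the Capn6-Wt array were well above background, and the upper quartile of processed signals (75th percentile) was 372 and 377 in the same order. The probe of Capn6 itself was not well above background on either array, with signals of 8.65 in Capn6-Ko and 3.93 in Capn6-Wt, so it does not check the labels. Macrophage markers were present, with 11 of 12 listed genes measured, 8 higher and 3 lower in Capn6-Ko, a summed signal of 244093 in Capn6-Ko and 239422 in Capn6-Wt, and a median log2 difference of 0.07. Cd68 had no matched probe. Stromal fibroblast markers were also present and were lower in Capn6-Ko: 10 of 11 measured genes were lower, the summed signal was 20955 in Capn6-Ko and 31716 in Capn6-Wt, and the median log2 difference was -0.50. Lum, the remaining listed stromal marker, was not well above background on either array. In RNA of a whole culture, fewer cells of a type and less RNA per cell cannot be told apart. The part of stromal cells in the differences of cytokine genes below was not tested.

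A gene counted as measured when most spots of a probe were well above background on both arrays, and its value is the log2 difference, Capn6-Ko minus Capn6-Wt, after each array was scaled to its 75th percentile. The ± is the spot error, an SD taken from replicate spots of similar brightness. Variation between mice, cultures or RNA preparations is not in it. By this rule 34 of the 44 genes were measured (77.3%), beside 62.3% of all named genes. Receptor chains were measured in 19 of 22 cases and ligands and antagonists in 11 of 18. All 4 SOCS genes were measured. Lif passed this limit in Capn6-Ko alone, as did 1.8% of all named genes, and Il1r1 in Capn6-Wt alone, as did 1.03%. The other 8 genes passed it on neither array. The flag also depends on the local background of a spot, so a spot can miss it at a signal just over the lowest flagged one.

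Most of the set was at nearly the same level in both genotypes. Of the 34 measured genes, 21 differed by less than 1.1-fold and 28 by no more than 2 spot errors. The median log2 difference was -0.03, beside -0.01 over all 12875 measured genes. With arrays scaled to their medians it was 0.0393, beside 0.06 over all genes. At a log2 difference of at least 0.32 (a ratio of 5 to 4, the size used throughout), Il1b and Il10 were higher in Capn6-Ko and Osmr, Socs2 and Cish were lower. That is 2 of 34 higher, beside 2.64% of all measured genes, and 3 of 34 lower, beside 5.53%. All 5 lie among the 18 members below the median level of measured genes, where 4.6% of genes were higher and 10.2% lower by this size. With so few genes these shares are close to the background and are not read as a result about the set. The background itself depends on the scaling: 340 genes were higher and 712 lower here, but 558 higher and 535 lower when arrays were scaled to their medians, while the counts for the set stayed at 2 and 3. No measured member reached 2-fold, a size at which 0.0233% of all measured genes were higher and 0.0699% lower. The count of genes past 2 spot errors was 3 higher (Il1b, Il10 and Ifngr1), beside 5.23% of all measured genes, and 3 lower (Osmr, Socs2 and Socs3), beside 6.65%. Il1b, Il10 and Socs2 have a probe spotted 10 times per array, which narrows their spot errors beside equally dim genes with 1 spot. The calls past 2 spot errors also depend on the processing. With normexp background correction and 50 added to each signal, 2 genes were higher (Il1b and Il10), beside 0.784% of all measured genes, and 1 was lower (Socs2), beside 1.79%. With arrays scaled to their medians, Csf2ra and Il6st joined the higher genes, beside 12.8%, and Socs3 was no longer among the lower ones, beside 3.8%.

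**Figure D1:**
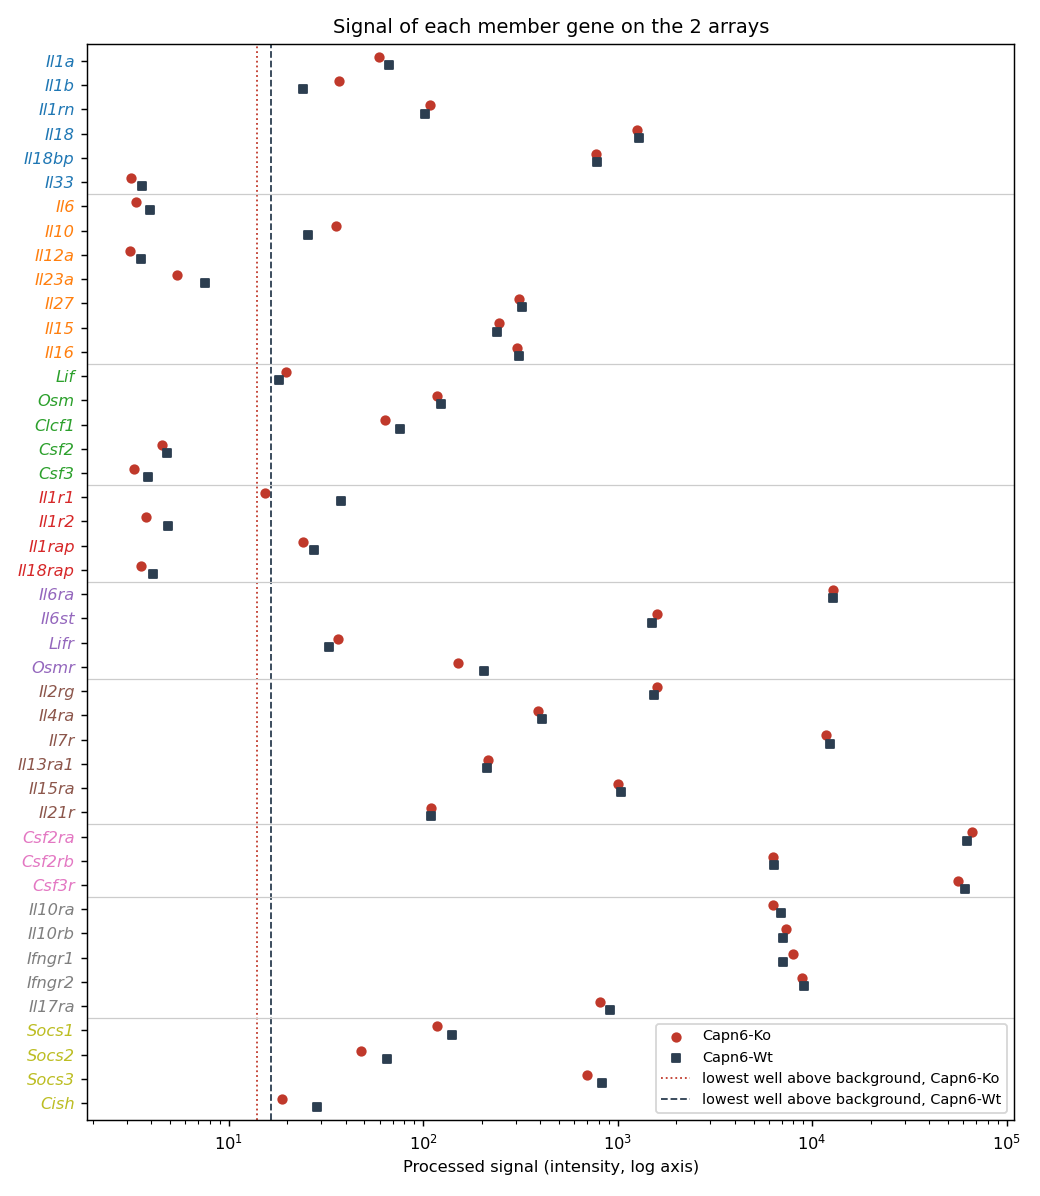
Processed signal of each of the 44 genes with a matched probe on a log axis, with Capn6-Ko as circles above Capn6-Wt as squares, colours of names marking roles, and vertical lines at the lowest signal well above background on each array (14.0 for Capn6-Ko, 16.6 for Capn6-Wt). Among genes well above background on at least 1 array, most pairs of points nearly coincide, while Il1b, Il10, Il1r1, Osmr, Socs2 and Cish show a gap, as do Il23a and Il1r2 left of both lines; brightness depends on the probe and is not compared between genes.

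Among the IL-1 family ligands and antagonists of the set, Il1b was higher in Capn6-Ko, while the others measured differed little. Outside the set, the IL-36 ligand Il1f9 was lower (-0.88 ± 0.29), as given below. Il1b encodes the secreted inflammatory cytokine IL-1β. Its probe is spotted repeatedly on the array, and the 10 spots on the Capn6-Ko array ran from 30.4 through a median of 37.3 to 43.3. The 9 usable spots on the Capn6-Wt array ran from 21.3 through a median of 24.4 to 29.7. All 10 Capn6-Ko spots lay above the highest of these 9, so the usable spots do not overlap. They are repeats within 1 RNA pool per genotype, and how often other replicated probes separate this way was not counted. The same limit holds for the spots of Il10 and Socs2 below. Both groups sit within a few times the detection limit. The log2 difference was 0.62 ± 0.10, a 1.54-fold higher level. After the normexp background correction with 50 added to each signal, which pulls dim genes toward 0, it was 0.22. With the flagged Capn6-Wt spot included, the log2 difference was 0.52. A fall of that size places the flagged spot above every Capn6-Ko spot, so the lack of overlap holds for usable spots only.

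Il1a, the membrane-associated agonist IL-1α, had signals of 59.1 in Capn6-Ko and 66.8 in Capn6-Wt, a difference of -0.16 ± 0.20. Il1rn, the receptor antagonist that blocks both IL-1 forms, had 109 in Capn6-Ko and 102 in Capn6-Wt (0.10 ± 0.15). Neither difference exceeded its spot error. Il18, a further inflammatory cytokine stored as a precursor in macrophages, had 1251 in Capn6-Ko and 1292 in Capn6-Wt (-0.03 ± 0.08). Il18bp, the secreted protein that neutralises IL-18, had 778 in Capn6-Ko and 783 in Capn6-Wt (0.01 ± 0.09). Il33, an alarmin released by damaged barrier and stromal cells, was not well above background on either array.

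**Figure D2:**
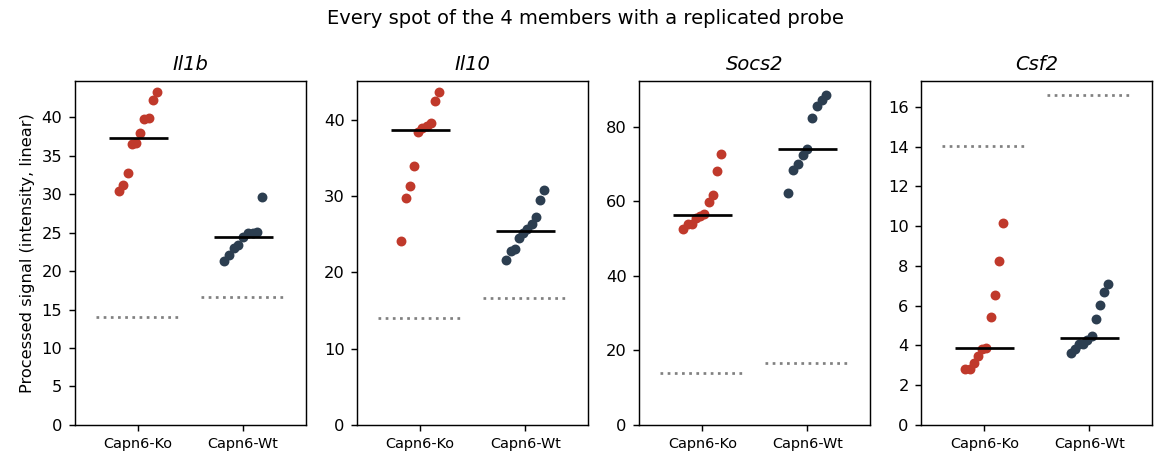
Processed signal of every usable spot, on linear axes from 0, for the 4 members with a probe spotted 10 times on each array. Outlier-flagged spots are left out, so Il1b and Socs2 show 9 spots for Capn6-Wt. Capn6-Ko is left of Capn6-Wt in each panel, with black bars at the median and dotted lines at the lowest signal well above background on that array. The usable spots of Il1b do not overlap between arrays, those of Il10 and Socs2 overlap in part, and those of Csf2 lie below the dotted lines on both.

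Il10, the cytokine through which macrophages dampen their own activation, was also higher in Capn6-Ko. Its 10 spots on the Capn6-Ko array ran from 24.1 through a median of 38.7 to 43.6, and the 10 on the Capn6-Wt array from 21.6 through a median of 25.4 to 30.7. Of the Capn6-Ko spots, 8 lay above every Capn6-Wt spot, and the remainder overlapped. The difference was 0.50 ± 0.10, or 1.41-fold, and 0.19 with the added 50. An inflammatory and an anti-inflammatory cytokine were therefore both higher in the same pool, each by more than 2 spot errors.

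The remaining interleukins of this group were level or undetected. Il27, a subunit of the heterodimeric cytokine IL-27, had 311 in Capn6-Ko and 323 in Capn6-Wt (-0.04 ± 0.11). Il15, which sustains NK cells and memory T cells, had 246 in Capn6-Ko and 239 in Capn6-Wt (0.06 ± 0.12), and Il16, a CD4 ligand, had 303 and 312 in the same order (-0.02 ± 0.11). Il6 had signals of 3.36 in Capn6-Ko and 3.94 in Capn6-Wt, which is not well above background on either. The same held for Il12a, which encodes a subunit of IL-12 (3.10 in Capn6-Ko, 3.54 in Capn6-Wt). It also held for Il23a, which encodes a subunit of IL-23 (5.41 in Capn6-Ko, 7.54 in Capn6-Wt). No fold is given for these 3 genes.

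Of the cytokines that signal through gp130 and the colony stimulating factors, only Osm and Clcf1 were measured on both arrays. Osm, which encodes the macrophage product oncostatin M, had 118 in Capn6-Ko and 123 in Capn6-Wt (-0.04 ± 0.15). Clcf1, a ligand of the CNTF receptor, had 64.0 in Capn6-Ko and 76.1 in Capn6-Wt (-0.23 ± 0.18). Lif, the leukaemia inhibitory factor, had 19.7 in Capn6-Ko and 18.1 in Capn6-Wt. It passed the detection limit in Capn6-Ko alone. Set against the dim probe's own level, the Capn6-Ko value was 1.098-fold higher, a log2 difference of 0.14 ± 0.33. This rests on 1 spot per array and is within the spot error. That error was taken from probes well above background on both arrays. It may be too small for the Capn6-Wt spot, which was not. Csf2, the GM-CSF gene, was below the limit in every spot, at a median of 3.85 over 10 Capn6-Ko spots and 4.36 over 10 Capn6-Wt spots. Csf3, the G-CSF gene, had 3.27 in Capn6-Ko and 3.85 in Capn6-Wt, also not well above background.

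Receptor chains had a median log2 difference of -0.01 over 19 measured genes, and 17 of the 19 stayed within 2 spot errors. The exceptions were Ifngr1, which was slightly higher in Capn6-Ko, and Osmr, which was lower. A further receptor, Il1r1, was detected in Capn6-Wt only.

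Il1r1 encodes the signalling receptor for IL-1α and IL-1β. Its single probe had a signal of 15.3 in Capn6-Ko, not well above background, and 38.1 in Capn6-Wt, well above it. Against the dim probe's own level it was 2.46-fold lower in Capn6-Ko, a log2 difference of -1.30 ± 0.33. Among the 212 genes that passed the detection limit in Capn6-Wt alone, 11.8% had a bound of 2-fold or more. The Il1r1 value rests on 1 spot per array. Its ± was taken from probes well above background on both arrays. It may be too small for the Capn6-Ko spot, which was not. Stromal cells are a known site of Il1r1 expression, and the stromal markers had the median of -0.50 given above. The part of stromal cells in the Il1r1 value was not tested. Il1r2, the decoy receptor for IL-1, had 3.77 in Capn6-Ko and 4.86 in Capn6-Wt and was not well above background. Il1rap, the accessory chain shared by IL-1, IL-33 and IL-36 receptors, was read by a probe with 24.0 in Capn6-Ko and 27.7 in Capn6-Wt (-0.19 ± 0.33). A second Il1rap probe, for another transcript, was not well above background on either array (8.98 in Capn6-Ko, 6.74 in Capn6-Wt). Il18rap, the accessory chain of the IL-18 receptor, was not well above background either, with 3.56 in Capn6-Ko and 4.07 in Capn6-Wt.

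Among receptors of the gp130 family, 3 chains were level and Osmr was lower in Capn6-Ko. Il6st, which encodes gp130 itself, had 1587 in Capn6-Ko and 1499.8 in Capn6-Wt (0.10 ± 0.08). Il6ra, the IL-6-binding chain, had 12749 in Capn6-Ko and 12778 in Capn6-Wt (0.01 ± 0.08). Lifr, the partner chain for LIF, had a measured probe at 60.8 in Capn6-Ko and 59.8 in Capn6-Wt and another at 21.8 and 17.9 in the same order, giving a mean of 0.17 ± 0.19. Another Lifr probe passed the detection limit in Capn6-Ko alone (18.0 in Capn6-Ko, 14.0 in Capn6-Wt). Osmr, the partner chain for oncostatin M, was at 151 in Capn6-Ko and 207 in Capn6-Wt. Its difference of -0.43 ± 0.13, or 1.35-fold lower, was 3.33 spot errors, and it was the 1 measured receptor past a ratio of 5 to 4. It was -0.27 ± 0.17 with the added 50, within 2 spot errors. Osmr is known to be strongly expressed by fibroblasts and other stromal cells, whose markers had a median of -0.50. The part of stromal cells in the Osmr value was not tested.

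The chains for IL-2 family cytokines, IL-4 and IL-13 were level. Il2rg, the common γ chain, had 1586 in Capn6-Ko and 1531 in Capn6-Wt (0.07 ± 0.08). Il7r, the IL-7-binding chain, had 11802 in Capn6-Ko and 12362 in Capn6-Wt (-0.05 ± 0.08). Il4ra, shared by the IL-4 and IL-13 receptors, was read by a probe at 629 in Capn6-Ko and 691 in Capn6-Wt and another at 243 and 241 in the same order, with a mean of -0.04 ± 0.07. The other 3 genes here, Il13ra1, Il15ra and Il21r, which bind IL-13, IL-15 and IL-21, had differences of 0.04 ± 0.12, -0.03 ± 0.09 and 0.02 ± 0.15.

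Receptors for the colony stimulating factors were also level, and their probes were far above background. Csf2ra, the GM-CSF-binding chain, had 66389 in Capn6-Ko and 62343 in Capn6-Wt (0.11 ± 0.08). Csf2rb, the signalling β chain of the GM-CSF receptor, had a probe at 24875 in Capn6-Ko and 25595 in Capn6-Wt and a second at 1588 and 1597 in the same order, with a mean of -0.01 ± 0.06. Its close paralogue Csf2rb2 was at -0.01 ± 0.06, and how far the probes tell them apart was not tested. Csf3r, the G-CSF receptor, had 56502 in Capn6-Ko and 61149 in Capn6-Wt (-0.10 ± 0.08). The ligands of these receptors were below the detection limit, as given above.

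Among the receptors for IL-10, interferon-γ and IL-17, Ifngr1 showed the largest difference. Ifngr1, the interferon-γ-binding chain, had 7976 in Capn6-Ko and 7049 in Capn6-Wt, a difference of 0.20 ± 0.08, or 1.15-fold. Its partner chain Ifngr2 had 8866 in Capn6-Ko and 9104 in Capn6-Wt (-0.02 ± 0.08). The ligand-binding chain was past 2 spot errors and its partner was not, but with the added 50 Ifngr1 was at 0.14 ± 0.20. The gap between the chains was not tested. Il10ra, the IL-10-binding chain, had 6287 in Capn6-Ko and 6898 in Capn6-Wt (-0.12 ± 0.08), and Il10rb, its partner, had 7303 and 7083 in the same order (0.06 ± 0.08). Il17ra, the common chain of IL-17 receptors, had 809 in Capn6-Ko and 916 in Capn6-Wt (-0.16 ± 0.09). The higher Il10 signal was not accompanied by a difference beyond 2 spot errors in either IL-10 receptor chain.

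**Figure D3:**
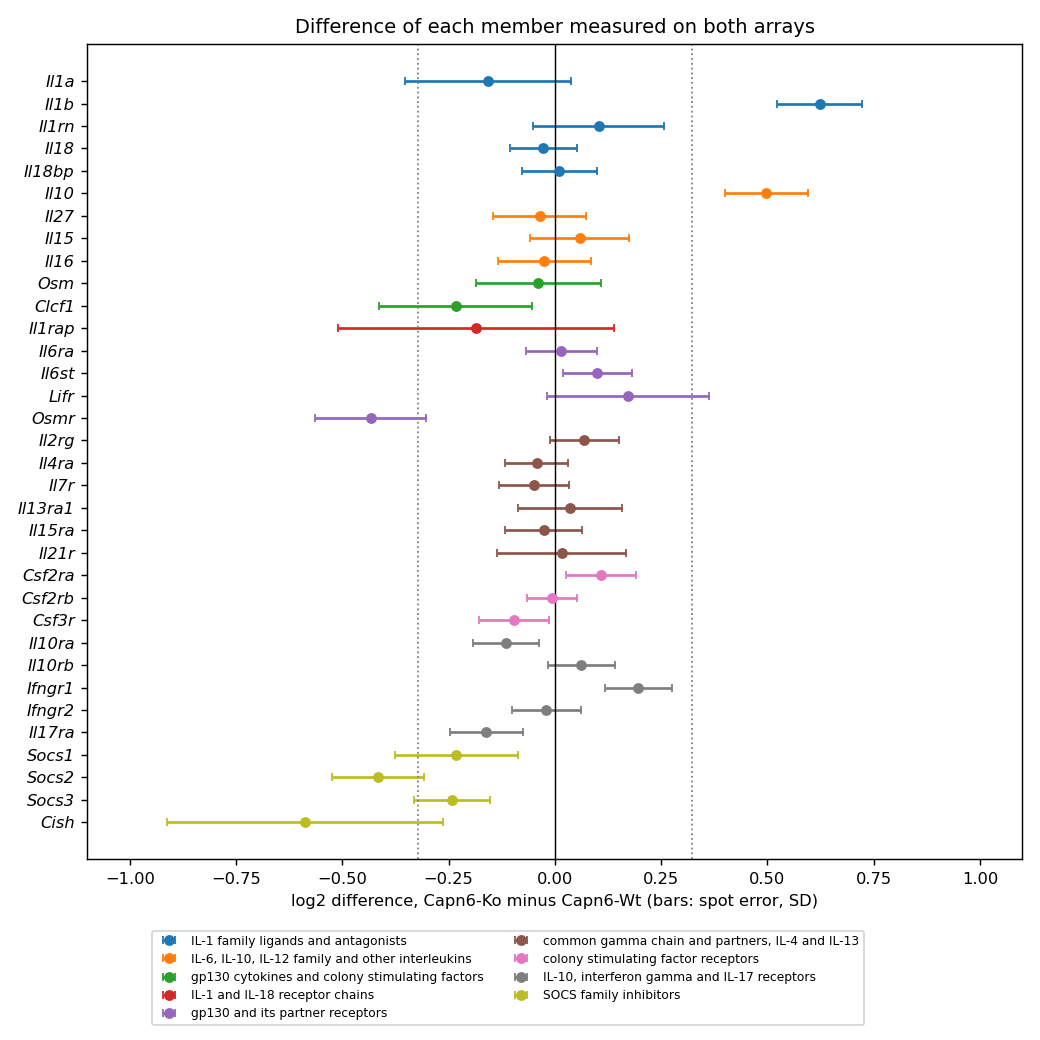
Difference on the log2 scale, Capn6-Ko minus Capn6-Wt, for the 34 genes measured on both arrays, ordered and coloured by role, with bars of 1 spot error (SD) and dotted lines at a ratio of 5 to 4. Il1b and Il10 lie right of the dotted line, Osmr, Socs2 and Cish left of it, and all 4 SOCS genes lie left of 0.

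The SOCS genes were the only role group in which every measured gene was lower in Capn6-Ko by more than its spot error. Their median log2 difference was -0.33, beside -0.01 over all measured genes, of which 21.1% were lower by more than their spot error and 52.2% by any amount. With the added 50 the SOCS median was -0.20 and Cish was within its spot error. Socs2, which restrains growth hormone and STAT5 signalling, was read by 3 probes. On its replicated probe the 10 Capn6-Ko spots ran from 52.7 through a median of 56.4 to 72.7, and the 9 usable Capn6-Wt spots from 62.2 through a median of 73.9 to 88.5. Of the Capn6-Ko spots, 8 lay below every Capn6-Wt spot, with overlap among the rest. The second probe had 45.0 in Capn6-Ko and 72.1 in Capn6-Wt, and the other 41.9 and 49.8 in the same order. All 3 probes were lower, by differences of -0.36 ± 0.06, -0.66 ± 0.21 and -0.23 ± 0.24, with a mean of -0.42 ± 0.11, or 1.33-fold. With the added 50 the mean was -0.18 ± 0.07, short of a ratio of 5 to 4.

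Cish, a STAT5 target gene that feeds back on GM-CSF, IL-2 and erythropoietin receptors, had 18.8 in Capn6-Ko and 28.6 in Capn6-Wt on its single probe. The difference of -0.59 ± 0.33 was 1.504-fold lower but within 2 spot errors. The probe is close to the detection limit and has 1 spot per array, which makes its spot error wide. With the added 50 the difference was -0.09 ± 0.13. Socs3, the inhibitor induced by gp130 cytokines and IL-10 that binds gp130, had 693 in Capn6-Ko and 830.2 in Capn6-Wt. Its difference of -0.24 ± 0.09, or 1.18-fold, was smaller than that of Cish but beyond 2 spot errors, and it was -0.24 ± 0.20 with the added 50. Socs1, the inhibitor of interferon signalling, had 118 in Capn6-Ko and 141 in Capn6-Wt (-0.23 ± 0.14). The sign of all 4 was negative under each of the 8 further settings that measured them. These settings reuse the same 2 arrays, and several leave a single-probe gene unchanged, such as Cish at -0.59 with no filter on dim probes. Among these 4, only Socs3 was measured with only probes above the median level. The shared sign is therefore not independent support. The stromal median was -0.50, and the part of stromal cells in the SOCS differences was not tested.

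STAT factors bind the motif TTCNNNGAA, so the promoters of Cish, Socs3 and Socs1 were searched for it. The promoter of Socs2 was not analysed here. The windows run from 250 bases before to 20 bases after the annotated start, from RefSeq on GRCm38.p6, and are shown 5′ to 3′ with matches in capitals. The Cish window is chr9:107296409-107296678 (plus strand), that of Socs3 chr11:117969347-117969616 (minus strand) and that of Socs1 chr16:10785517-10785786 (minus strand).
Cish: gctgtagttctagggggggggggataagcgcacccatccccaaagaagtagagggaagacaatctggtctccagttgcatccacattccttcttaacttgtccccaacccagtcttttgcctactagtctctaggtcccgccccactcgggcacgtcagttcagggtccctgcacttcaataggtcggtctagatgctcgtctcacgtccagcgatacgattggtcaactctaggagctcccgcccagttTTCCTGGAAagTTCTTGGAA
Socs3: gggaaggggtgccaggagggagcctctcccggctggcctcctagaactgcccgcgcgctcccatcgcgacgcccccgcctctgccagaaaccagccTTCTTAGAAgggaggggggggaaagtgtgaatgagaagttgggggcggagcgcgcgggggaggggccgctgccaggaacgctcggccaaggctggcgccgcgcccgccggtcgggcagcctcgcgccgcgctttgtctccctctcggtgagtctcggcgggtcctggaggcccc
Socs1: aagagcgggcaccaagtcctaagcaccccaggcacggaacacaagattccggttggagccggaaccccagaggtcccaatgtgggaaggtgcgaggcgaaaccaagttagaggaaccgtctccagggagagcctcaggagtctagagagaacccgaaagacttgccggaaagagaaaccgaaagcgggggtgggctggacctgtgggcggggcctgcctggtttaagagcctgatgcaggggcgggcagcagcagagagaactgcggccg
The Cish window held 2 matches, side by side at bases 1 to 9 and 12 to 20 counted from the start. Socs3 held 1 match, at bases -154 to -146 counted the same way, and the Socs1 window held none. The motif reads the same on both strands, and its matches do not overlap. Of all 32851 promoters in windows of this length, 7.58% held a match and 0.37% held 2 or more. Of the 33 genes of the set with a promoter in the table, 4 held a match, namely Il1r2, Il7r, Socs3 and Cish. A match describes the letters only and is not evidence that a factor bound there.

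**Figure D4:**
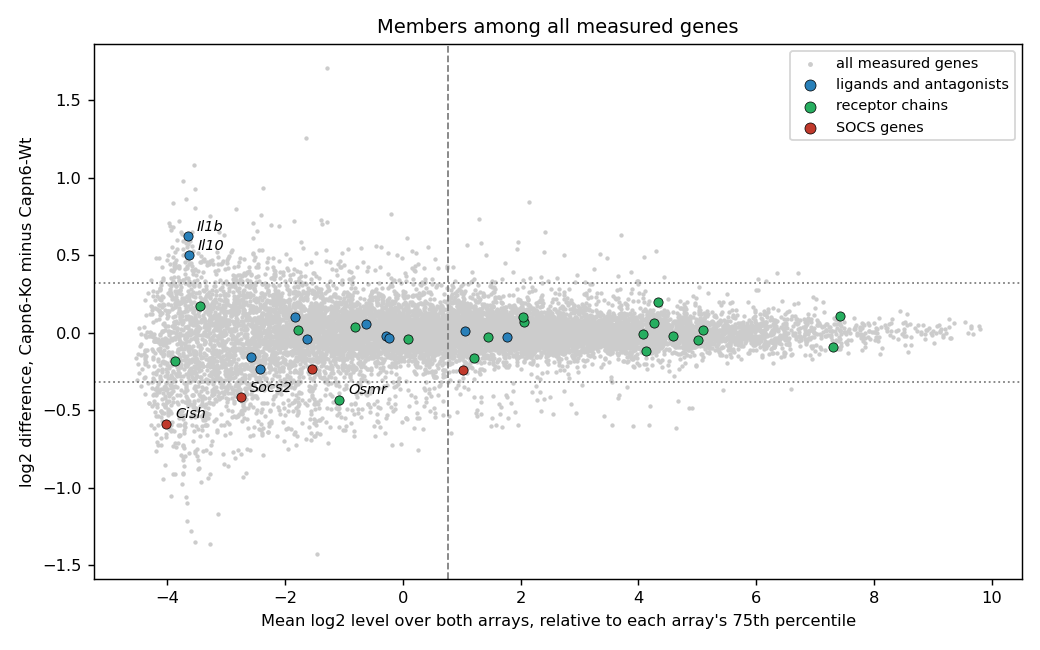
Difference on the log2 scale, Capn6-Ko minus Capn6-Wt, against the mean log2 level over both arrays relative to the 75th percentile, for all 12875 measured genes in grey and the 34 members in colour, with dotted lines at a ratio of 5 to 4 and a dashed line at the median level. The 5 labelled members past a ratio of 5 to 4 lie left of the dashed line, where the spread of all genes is wide, and the 16 members to its right stay between the dotted lines.

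The genes around the members in the same pathways were largely level. Of 26 JAK kinases, STAT factors and their inhibitors outside the set, 25 were measured, with 14 higher, 11 lower and none past a ratio of 5 to 4, and the median was 0.02. The furthest were Jak3, the kinase that pairs with the common γ chain, at 144 in Capn6-Ko and 116 in Capn6-Wt (0.3216 ± 0.10, just under the size of 0.3219), Stat4 at 39.6 and 33.3 in the same order (0.27 ± 0.28), and Ptpn6, the phosphatase SHP-1 that dampens cytokine receptors, at 10442 and 9183 (0.20 ± 0.08). The SOCS genes outside the set were on both sides of 0, with Socs4 at -0.18 ± 0.10, Socs5 at 0.16 ± 0.12, Socs6 at 0.01 ± 0.09 and Socs7 at 0.07 ± 0.08.

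Of 14 other STAT target genes, all were measured and none was past a ratio of 5 to 4, with 10 higher, 4 lower and a median of 0.04. Ccnd1, the cyclin D1 gene, had 1571 in Capn6-Ko and 1378 in Capn6-Wt (0.21 ± 0.08), Myc had 348 and 310 in the same order (0.19 ± 0.08), and Cebpd, a transcription factor induced by IL-6 and IL-1, had 4627 and 4149 (0.18 ± 0.07). These 3 were past 2 spot errors, beside 5.23% of all measured genes that were higher by as much. Batf was lower past 2 spot errors (-0.08 ± 0.03), beside 6.65% of all measured genes. Any link of this list to the SOCS values was not tested.

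In IL-1 and IL-18 signalling 18 of 21 listed genes were measured, with a median of -0.01, 7 higher and 11 lower. Past a ratio of 5 to 4 were Il1f9, an IL-36 ligand, at 25.0 in Capn6-Ko and 46.4 in Capn6-Wt (-0.88 ± 0.29), and Il1rl1, the IL-33 receptor ST2, at 103 and 144 in the same order (-0.47 ± 0.10). Tollip, an adaptor that restrains IL-1 receptor signalling, was at -0.12 ± 0.05. The other 15 lay closer to 0, among them the IL-1β-processing protease Casp1 (-0.02 ± 0.08), the adaptor Myd88 (0.08 ± 0.03) and the inflammasome adaptor Pycard (-0.01 ± 0.08).

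Of 29 other cytokine ligands only 9 were measured. Il11, a gp130 cytokine made chiefly by fibroblasts, had 151 in Capn6-Ko and 237 in Capn6-Wt (-0.63 ± 0.13). It was the 1 ligand of this list past a ratio of 5 to 4. The part of stromal cells in its value was not tested. Ctf1, cardiotrophin-1, was at -0.24 ± 0.10 and Cntf at 0.15 ± 0.10. Of 32 other receptor chains 17 were measured. Il12rb1, a chain of the IL-12 and IL-23 receptors, had 26.95 in Capn6-Ko and 42.0 in Capn6-Wt (-0.62 ± 0.29). Epor, the erythropoietin receptor, was at -0.26 ± 0.09. The receptor Il11ra1 for the lower ligand Il11 was at 0.02 ± 0.08.

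**Figure D5:**
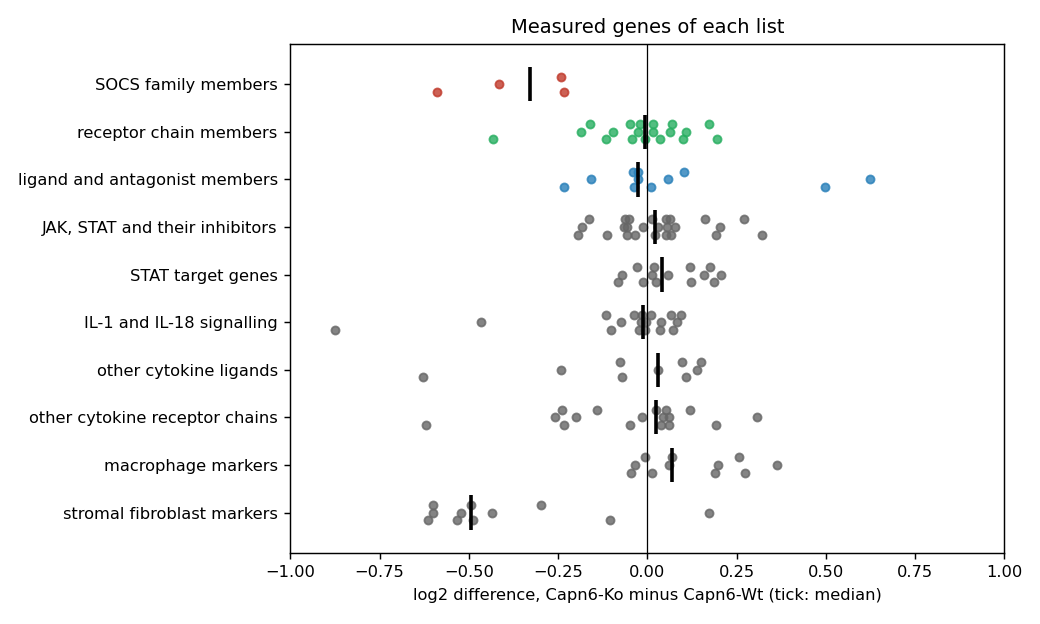
Difference on the log2 scale, Capn6-Ko minus Capn6-Wt, of each measured gene by list, with a tick at the median. The 4 SOCS genes lie from -0.59 to -0.23, the receptor, JAK, STAT and STAT target lists have medians near 0, and the stromal fibroblast markers have a median of -0.50.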

How the data were processed

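RNA of cultured bone marrow-derived macrophages was labelled with Cy3, and 1 array was run per genotype. The deposited scanner files hold linear spot intensity that the authors extracted with Agilent Feature Extraction 10.10.1.1 from a design annotated on mm9, per the file headers. Its processed signal is background-subtracted within each array. The deposited value table is the same intensity times 1 constant per array, 2.42 for Capn6-Ko and 2.39 for Capn6-Wt, and has column medians of 50.7 and 53.0. It is uncentred. The origin of these constants is unknown. The other flag columns, deposited by the authors, mark outliers and spots well above background.

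Control spots and outlier-flagged spots (136 for Capn6-Ko, 161 for Capn6-Wt) were left out, and none was saturated. Processed signals were put on the log2 scale relative to the 75th percentile of each array, spots of a probe were averaged, and a gene is the mean of its measured probes. Of 55678 probes, 27232 matched 1 gene symbol in the RefSeq table of GRCm38.p6 and the others stayed unnamed. A listed synonym was counted once, under its RefSeq symbol. Spot error came from 263 probes well above background on both arrays with at least 5 spots per array, in 8 bins of level. For a bound, the bright array is compared with the dim probe's own level or with the dim array's detection limit (its lowest signal well above background), whichever is higher. Where the dim probe's own level is used, the value is a plain ratio.

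Both arrays lay on the same slide. No test was run, and the number of arrays limits precision. The genes of the set, the lists and the sizes were chosen with earlier results of these data known. Every gene of the set is named, and of each pathway list the 3 measured genes furthest from 0. The result for 1 gene under this rule is not reported here. Batf, Casp1, Myd88, Pycard, Csf2rb2, Il11ra1 and Socs4 to Socs7 were named after their values were seen. Values were computed with numpy 2.4.6 and pandas 2.3.3 under Python 3.11.15, and limma 3.58.1 in R 4.3.3 did the quantile normalization and normexp. The calculation was tested on simulated data.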

Additional observations from a re-analysis of the deposited data

How the results depend on the processing

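Across 8 further settings Il1b and Il10 stayed higher and Osmr, Socs1, Socs2, Socs3 and Cish lower wherever they were measured. No called value changed sign. All settings reuse the same 2 arrays, and several cannot move a gene read by 1 probe without flagged spots. The authors' value table differs from the processed signal only by 1 constant per array. By a ratio of 5 to 4, 2 genes of the set were higher and 3 lower. With normexp these counts became 0 and 0, beside 81 and 196 of all 12875 measured genes. Normexp used an offset of 50 and the median spot signal, because the files hold no mean signal, a choice made after seeing the data. With only probes above the median level, which leaves 17 genes of the set, they became 0 and 0, beside 73 and 109 of 8410. With no filter on dim probes 2 of 44 genes were higher and 6 lower, beside 1667 and 2590 of all 20660 named genes. The counts of 3 higher and 3 lower past 2 spot errors became 2 and 1 with normexp, beside 0.784% and 1.79% of all genes. With arrays scaled to their medians they became 5 and 2, beside 12.8% and 3.8%. With only probes above the median level they became 1 and 1, beside 5.68% and 5.09%. The offset shrinks differences of dim genes by its construction, and it moved the SOCS median to -0.20, Il1b to 0.22, Il10 to 0.19, Osmr to -0.27, Socs2 to -0.18 and Cish to -0.09. Scaling to the array median moved the median of the set to 0.0393, as it moved that of all genes to 0.06. The authors' value table, quantile normalization, the brightest probe and kept outlier spots left the counts at 2 and 3. Naming probes by a gene name column was not run, since the files have no such column. No paired analysis was possible because each group has 1 array. Brightness limits Il1b, Il10, Il1r1, Lif, Socs2 and Cish, whose signals lie within a few times the lowest signal well above background.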

Other observations

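Outside the set, 4 genes of the pathway lists passed the detection limit on a single array, each read by a single probe except Nlrp3. Nlrp3, the inflammasome sensor upstream of IL-1β processing, had signals of 28.8 in Capn6-Ko and 17.7 in Capn6-Wt. Against the dim probe's own level it was 1.65-fold higher in Capn6-Ko. Pias3, an inhibitor of STAT3, had 22.5 in Capn6-Ko and 12.2 in Capn6-Wt and was at least 1.37-fold higher. Il1rl2, the IL-36 receptor, had 20.8 in Capn6-Ko and 18.2 in Capn6-Wt, a plain ratio of 1.16-fold higher. Il22 had 15.0 in Capn6-Ko and 19.6 in Capn6-Wt, a plain ratio of 1.29-fold lower in Capn6-Ko. No spot error is given for these ratios, and the SD of 1 spot in the dimmest bin of level was 0.23 on the log2 scale. Among all named genes, 1.8% passed it in Capn6-Ko alone and 1.03% in Capn6-Wt alone.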
